A study of Homo sapiens with 8 samples.

Results

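The MYC and MAX network comprises transcription factors that share a basic helix-loop-helix leucine zipper fold and compete for one partner. Its 10 members analysed here were the activators MYC, MYCN and MYCL, the shared partner MAX, the antagonists MXI1, MXD1, MXD3, MXD4 and MNT, and MGA. They were taken by gene symbol from the 43682 symbols of 4 RNA count files, and all 10 symbols were present. MYC proteins bind E-box DNA as dimers with MAX and raise transcription of genes for growth, ribosome assembly and metabolism. MXI1, the MXD proteins and MNT also pair with MAX at E-boxes, but they recruit SIN3 corepressors and lower transcription. In renal carcinoma cells without working VHL, hypoxia-inducible factors (HIF) stay active, and MXI1 is a known target of HIF-1.

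The libraries came from UM-RC-2, an established clear cell renal cell carcinoma line that carries a VHL missense mutation per the labels. Cells stably carried either a lentiviral construct called VEC or one expressing VHL, and all were selected with blasticidin at 10 µg/ml, so the mutant VHL gene and the drug selection were common to both groups. There were 2 VEC and 2 VHL libraries, numbered 1 and 2 and written VEC1, VHL1, VEC2 and VHL2 below. The labels give total RNA as the molecule of both replicate 1 libraries and polyA RNA as that of both replicate 2 libraries. VHL was therefore compared with VEC within each number. The labels do not say whether the numbers mark separate cultures or infections, so the errors below may be technical. The promoter of the VHL construct and any picking of clones are not given in the sources used here.

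Levels are given as CPM, counts scaled to the size of the library. VHL itself stood at 37.1 CPM in VEC1, 146 CPM in VHL1, 88.9 CPM in VEC2 and 151 CPM in VHL2, higher with the VHL construct in each pair. Total counts ranged from 16230291 to 50027348 per library, and both replicate 2 libraries were the deeper ones. The share of counts on pseudogenes was 1.37% in VEC1, 2.07% in VHL1, 31.3% in VEC2 and 24.9% in VHL2. All 10 renal epithelial and renal carcinoma markers examined, PAX8 among them, were detected in every library. But 9 of the 10 had fitted log2 changes below 0, with a median of -0.48. In VHL of both pairs 8 were lower, as were 25.0% of all genes tested. Their summed level, most of it from LRP2 and VIM in each library, was 4798 CPM in VEC1 against 2947 in VHL1, and 2442 CPM in VEC2 against 1621 in VHL2. Of these markers edgeR called CA9, a HIF target gene, at -5.45, and CUBN, an endocytic receptor gene of the proximal tubule, at -1.94, both lower. It called 3.10% of all genes tested. DESeq2 called 5 of the 9 markers to which it gave an adjusted p, these with VIM and LRP2, which were lower, and CDH6, which was higher. Of all 32804 genes it fitted, not all of which got an adjusted p, it called 1143. Leukocyte markers summed to between 11.8 and 43.9 CPM, nearly all of it from CD68, with CD3E and MS4A1 at 0. PTPRC, another of them, had 0 counts in VEC1 and VHL1, 72 in VEC2 and 63 in VHL2. CD14 had 2 to 4 counts per library. Of the endothelial and fibroblast markers PECAM1, VWF and CDH5 were at 0 throughout, while DCN, a fibroblast gene, had 15 counts in VEC2 and 18 in VHL2, and COL1A1 had 1 in VHL2. A 0 has to be read with care in these files, since EIF4A1, a translation factor gene that all cells use, was also listed at 0 in all 4 libraries.

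In VHL cells the MYC antagonists MXI1 and MXD4 fell, while MYC, MAX and MGA did not pass the test in either direction. A gene was called when its Benjamini-Hochberg adjusted p was under 0.05 in edgeR's quasi-likelihood test with the replicate number as a block. Of the 10 members, 9 passed the filter on low counts and were tested, and MYCN was left out by it. The 2 calls, both lower, compare with 3.10% of the 24417 genes tested that were called and 2.35% that were called lower. Among the 13915 protein-coding genes of the same fit these shares were 3.64% and 2.52%. By role, 2 of the 5 antagonists were called and 0 of the 2 activators tested, and DESeq2 called the same 2, where it gave an adjusted p to 4 antagonists and 1 activator (none to MXD1 or MYCL). The calls need the block, which leaves 1 residual degree of freedom: with group as the only term edgeR called 0 of all genes (22 at an unadjusted p under 0.05), and MXI1 and MXD4 had an adjusted p of 0.999991. At an unadjusted p under 0.05 in the block fit there were 4 members, all antagonists and all lower, beside 12.5% of all genes tested (7.82% lower) and 14.1% of protein-coding genes. DESeq2 had 3, MXI1, MXD3 and MXD4, beside 2615 of the 32804 genes it fitted. Most of the renal markers above were lower in VHL together with these antagonists, and the part of that in the result was not tested.

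**Figure D1:**
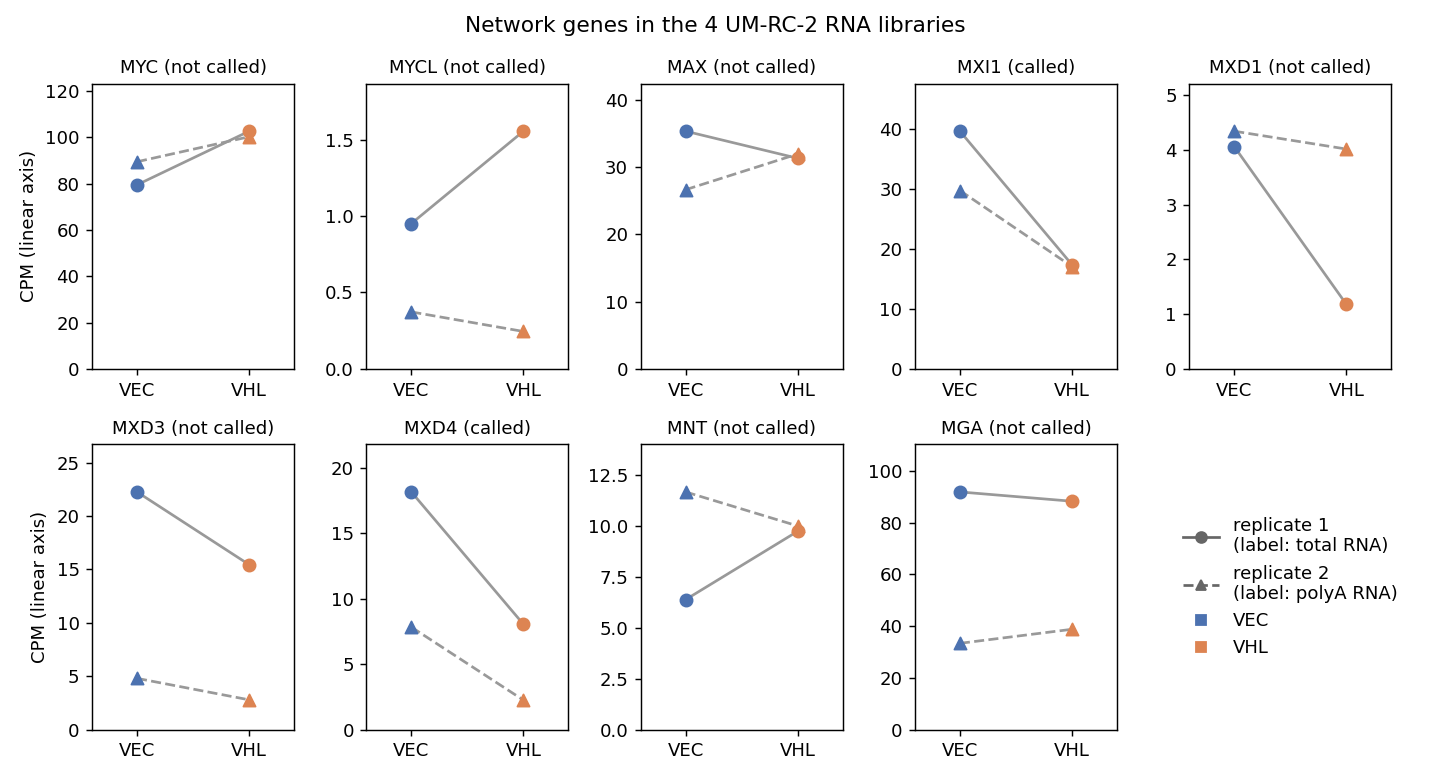
Level of each tested member in CPM on a linear axis in the 4 libraries, with lines joining VEC to VHL of the same replicate number. MXI1 ends near 17 CPM in both VHL libraries, from 39.7 and 29.8 CPM in VEC.

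MXI1, which encodes an antagonist that dimerises with MAX and recruits SIN3, had 918 counts in VEC1, 324 in VHL1, 1357 in VEC2 and 697 in VHL2. These correspond to 39.7, 17.4, 29.8 and 17.1 CPM in the same order. Both VHL libraries lay below both VEC libraries, as in 3.39% of all genes tested, although the VEC levels differed from each other. Within the pairs the log2 changes were -1.19 (total RNA) and -0.80 (polyA RNA). The fit across both pairs gave -0.99 ± 0.23 (SE, n = 2 per group), with an adjusted p of 0.00181 in edgeR's quasi-likelihood test. These are transcript levels in bulk RNA, in which fewer cells with the transcript and less transcript per cell cannot be told apart.

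MXD4, another MAX-binding repressor, had the largest fitted change of the 9 members tested, although MXD1 and MXI1 changed more within replicate 1. Its level was 18.1 CPM in VEC1 (420 counts), 8.04 CPM in VHL1 (150 counts), 7.83 CPM in VEC2 (357 counts) and 2.25 CPM in VHL2 (92 counts). It was lower in VHL in each pair, but its groups overlapped across the pairs, because VHL1 was slightly above VEC2. The log2 changes were -1.16 and -1.78. The fit gave -1.47 ± 0.31 (SE, n = 2 per group), with an edgeR adjusted p of 0.000219 and rank 201 of all genes by p-value, against rank 286 for MXI1.

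MXD1 and MXD3 were lower in VHL of both pairs, and neither was called. MXD1, the founding member of the MXD group, had 94 counts in VEC1 against 22 in VHL1, and 198 in VEC2 against 164 in VHL2. Its levels were 4.06, 1.18, 4.34 and 4.02 CPM in that order. Both VHL libraries thus lay below both VEC libraries, as in 3.39% of all genes tested, by a narrow margin for VHL2. The pairs were thus unlike in size, with log2 changes of -1.70 and -0.11. Exact 95% Poisson intervals, which cover counting error only, were 76 to 115 and 13.8 to 33.3 counts for the replicate 1 libraries, and 171 to 228 and 140 to 191 counts for those of replicate 2. The fit gave -0.81 with a 95% interval that ended at 0.00 (edgeR adjusted p = 0.397). MXD3, a member of the same group, stood at 22.2 CPM in VEC1 against 15.4 in VHL1, and at 4.80 CPM in VEC2 against 2.79 in VHL2. Its changes were -0.52 and -0.77, and the fit gave -0.65 with a 95% interval from -1.22 to -0.08 (edgeR adjusted p = 0.283). In RefSeq's annotation MXD3 overlaps PRELID1, MXD1 overlaps ASPRV1, and MAX overlaps FNTB and CHURC1-FNTB among others. MXI1, MXD4 and MGA overlap noncoding genes, and how shared reads were counted is not stated.

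MNT, an antagonist expressed in most tissues, did not follow the others. It was measured at 6.39 CPM in VEC1, 9.76 in VHL1, 11.7 in VEC2 and 10.0 in VHL2. The direction was opposite in the pairs, 0.60 and -0.22 on the log2 scale. The fit gave 0.17 with a 95% interval from -0.41 to 0.75 (edgeR adjusted p = 0.952). Among the antagonists, 4 of 5 were therefore lower in VHL of both pairs, where 25.0% of all genes tested were. Their summed level was 90.5 CPM in VEC1 and 51.8 in VHL1, against 58.4 CPM in VEC2 and 36.1 in VHL2.

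**Figure D2:**
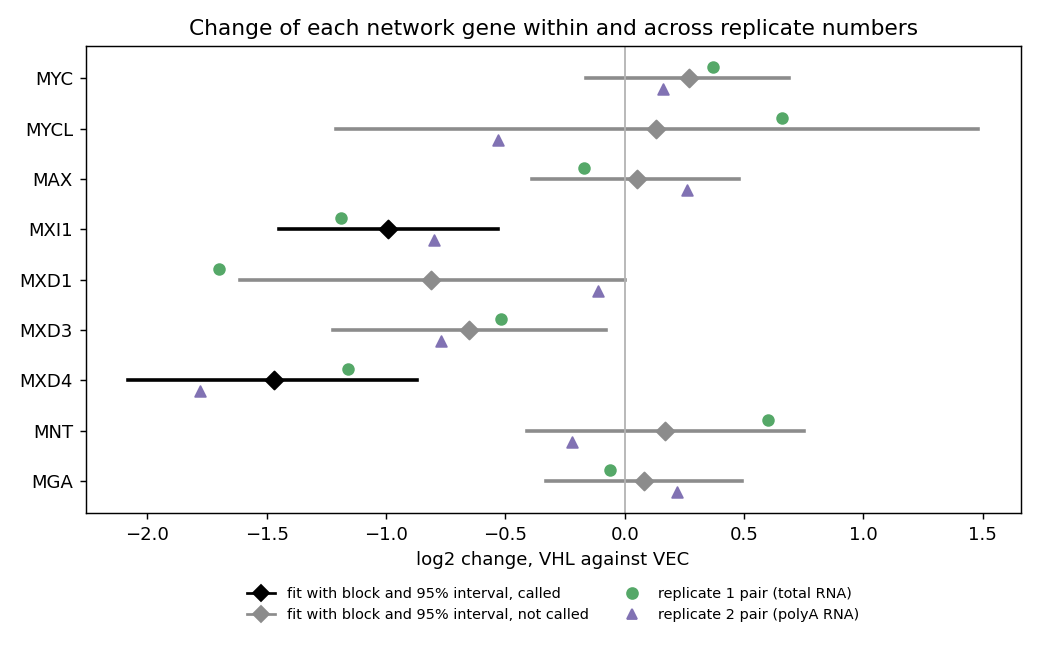
Log2 change of VHL against VEC for each tested member, with the replicate 1 pair as circles, the replicate 2 pair as triangles, and the fit with its 95% interval as diamonds and bars. MXI1 and MXD4 are the members called, at -0.99 and -1.47, and MYCL, MAX, MNT and MGA have pair values on both sides of 0.

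MYC, the activator best known from cancer, was the only activator with more than 29 counts in any library. It had 1841 counts in VEC1, 1916 in VHL1, 4082 in VEC2 and 4097 in VHL2. As levels these were 79.5, 103, 89.5 and 100.3 CPM. Both VHL libraries lay above both VEC libraries, a pattern that 4.47% of all genes tested showed. The log2 changes were 0.37 and 0.16, and the fit gave 0.27 ± 0.22 (SE, n = 2 per group; edgeR adjusted p = 0.748). In this fit, which has the block, its 95% interval ran from -0.16 to 0.69. A fall of the size of that in MXI1 lay outside it, while a small fall and a larger rise lay inside.

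The other activators had few counts. MYCL, an activator best known from small cell lung cancer, had 22 counts in VEC1, 29 in VHL1, 17 in VEC2 and 10 in VHL2, at most 1.55 CPM. Its changes were 0.66 and -0.53, and a 95% interval from -1.21 to 1.48 shows how little this depth allows to be said (edgeR adjusted p = 0.991). MYCN, the activator amplified in neuroblastoma, had 0 counts in VEC1 and VHL1, 1 in VEC2 and 2 in VHL2. A count of 0 has an exact Poisson upper bound of 3.69 counts. MYCN and MYCL overlap antisense genes in RefSeq's annotation, and whether the counting used strand is not stated.

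MAX, the obligate partner of both classes, stood at 35.3 CPM in VEC1, 31.3 in VHL1, 26.6 in VEC2 and 32.0 in VHL2. Its groups overlapped, and the fit gave 0.05 with a 95% interval from -0.39 to 0.48 (edgeR adjusted p = 0.990). MGA, a very large MAX partner with a T-box domain that works in a Polycomb complex, stood at 91.9 CPM in VEC1, 88.3 in VHL1, 33.4 in VEC2 and 38.8 in VHL2. The replicate 1 libraries were far above the replicate 2 libraries whichever construct they carried. Its fitted change was 0.08, with an interval from -0.33 to 0.49 (edgeR adjusted p = 0.976). MXD3 and MXD4 had a like split between the numbers, though VHL1 was only slightly above VEC2 for MXD4. MYCL had it too, at few counts, and MNT in VEC had the opposite one.

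The activators were then set against the antagonists. The median log2 change was -0.81 over the 5 antagonists and 0.20 over the 2 activators tested, against -0.03 over all genes tested. The difference of the unrounded medians was -1.00 in the fit, -1.68 within replicate 1 and -0.59 within replicate 2. The activator median rests in part on MYCL and its few counts. Counts of MYC were therefore also divided by those of each partner or antagonist within a library, which removes the library scaling. Such a ratio is comparable between libraries, not between genes, because gene lengths were not used.

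For each MXI1 count there were 2.01 MYC counts in VEC1, 5.91 in VHL1, 3.01 in VEC2 and 5.88 in VHL2. The ratio was thus 2.95 times as high in VHL in replicate 1 and 1.95 times as high in replicate 2, and its groups did not overlap. That follows from the levels given above, where both VHL libraries were above both VEC libraries for MYC and below them for MXI1. It adds no separate evidence. Per MXD4 count the ratio went from 4.38 to 12.8 and from 11.4 to 44.5. Per MXD3 count it went from 3.57 to 6.65 and from 18.6 to 35.9, folds of 1.86 and 1.93, although the groups overlapped across the numbers. Per MXD1 count the folds were 4.45 and 1.21. Against MAX (1.46 and 0.934), MGA (1.34 and 0.964) and MNT (0.846 and 1.31) the folds fell on both sides of 1. A two-sided exact permutation test of such a ratio took the libraries as unpaired, without the replicate number. With 2 libraries against 2 it cannot give a p below 0.333, which was its value for MXI1, MXD1 and MXD4. Of the 7 ratios computed, none could pass a threshold of 0.05.

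**Figure D3:**
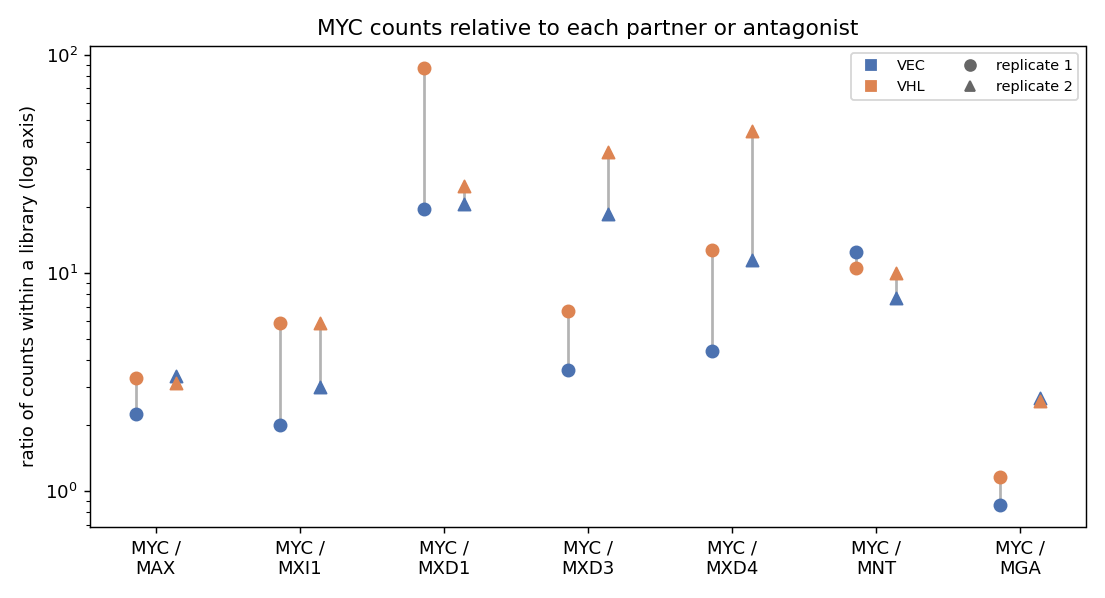
Ratio of MYC counts to those of each other tested member except MYCL within each library, on a log axis, with VEC and VHL of a replicate number joined. The ratio to MXI1 is 5.91 and 5.88 in the VHL libraries and 2.01 and 3.01 in the VEC libraries.

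Promoter sequences of the called antagonists are shown because both MYC dimers and HIF read short elements that share letters. RefSeq windows of GRCh38.p14, taken as the 250 bases before each annotated start, were available for 9 of the 10 members, all but MYC, in 14 windows. They were searched on both strands for CACGTG (the E-box), ACGTG and GCGTG (the core letters of hypoxia response elements). Each CACGTG also holds ACGTG on both strands. Of all 35116 such windows, 6.34% hold CACGTG, 18.5% hold ACGTG and 32.2% hold GCGTG. The members' windows with the E-box were 2, those of MXD4 and MNT. There were 5 with ACGTG and 5 with GCGTG. The windows printed here are those of the second and the third of 3 MXI1 starts, the MXD4 window, and that of MNT as an antagonist that was not called. Each runs 5′ to 3′ on the gene's strand, and capitals mark the matches. MXI1 start 2 is at chr10:110209981-110210230 and MXI1 start 3 at chr10:110225746-110225995, both on the plus strand. MXD4 is at chr4:2262110-2262359 and MNT at chr17:2401061-2401310, both on the minus strand.
MXI1 start 2: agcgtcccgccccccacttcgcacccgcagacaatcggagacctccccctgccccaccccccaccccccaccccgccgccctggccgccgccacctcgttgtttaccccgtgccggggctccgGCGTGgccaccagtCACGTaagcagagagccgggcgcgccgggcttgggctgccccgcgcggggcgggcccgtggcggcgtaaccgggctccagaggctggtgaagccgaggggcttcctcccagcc
MXI1 start 3: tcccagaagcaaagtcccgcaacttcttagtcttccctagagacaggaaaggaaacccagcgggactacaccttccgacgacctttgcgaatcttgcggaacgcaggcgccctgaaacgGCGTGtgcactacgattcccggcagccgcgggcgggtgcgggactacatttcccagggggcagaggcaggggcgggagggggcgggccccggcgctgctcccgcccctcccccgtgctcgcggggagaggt
MXD4: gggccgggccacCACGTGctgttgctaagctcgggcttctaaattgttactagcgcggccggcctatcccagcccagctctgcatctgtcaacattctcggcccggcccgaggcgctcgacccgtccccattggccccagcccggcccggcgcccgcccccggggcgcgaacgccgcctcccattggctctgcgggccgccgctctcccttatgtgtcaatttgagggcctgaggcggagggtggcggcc
MNT: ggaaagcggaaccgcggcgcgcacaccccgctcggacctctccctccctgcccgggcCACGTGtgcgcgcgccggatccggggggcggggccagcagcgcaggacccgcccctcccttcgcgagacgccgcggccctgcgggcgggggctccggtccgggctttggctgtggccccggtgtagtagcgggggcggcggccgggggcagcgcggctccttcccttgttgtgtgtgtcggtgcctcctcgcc
The second MXI1 window has ACGTG on its minus strand and GCGTG on its plus strand, and the third has GCGTG. The first MXI1 window and the MXD1 window have none of the 3 motifs, and MXD3 has GCGTG. An E-box thus occurs before a gene that fell, MXD4, and before MNT, which was not called. A match describes letters, not binding, and which MXI1 start these cells used cannot be read from counts per symbol.

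Of 34 genes tested in 5 lists of genes that act with the network, edgeR called 1, or 2.94%, near the 3.10% of all genes. Calls by edgeR thus do not set these genes apart. At an unadjusted p under 0.05 edgeR had 2, beside 12.5% of all genes. In the parallel MLX branch, 0 of 3 genes passed in edgeR and 0 of the 2 with an adjusted p in DESeq2, and 0 had an unadjusted p under 0.05 in either. MLX, MLXIP and MLXIPL had fitted changes of 0.19, 0.29 and -0.11. Among 6 corepressor genes used by MXD proteins, SAP30, a subunit of the SIN3 and histone deacetylase complex, was lower. Its level was 34.7 CPM in VEC1, 15.0 in VHL1, 13.6 in VEC2 and 10.0 in VHL2, with a fitted change of -0.83 ± 0.25 (SE, n = 2 per group) and an adjusted p of 0.0416 in edgeR. DESeq2 did not call it (adjusted p = 0.145) and called HDAC2, a histone deacetylase gene of the same list, with edgeR changes of 0.30 and 0.47 in the pairs, instead. SIN3A, the scaffold of that complex, had changes of 0.34 and 0.38 in the pairs and was not called (edgeR adjusted p = 0.547). None of the 8 coactivators of MYC, such as TRRAP and KAT5, of the 9 turnover and partner genes tested, or of the 8 partners of MGA in its Polycomb complex was called by edgeR, nor were the 8, 8 and 7 of them with an adjusted p called by DESeq2. At an unadjusted p under 0.05 in edgeR the 3 lists held ACTL6A alone, a chromatin remodelling subunit gene, at 0.47. In DESeq2 they held 3, 2 and 1 genes, and the corepressor list held 3, SIN3A, HDAC2 and SAP30. Over all genes DESeq2 had 2615 of the 32804 it fitted, with no filter on low counts. The corepressor list and these 3 lists each held a larger share than that, which was not tested. PVT1, the noncoding RNA beside MYC, had changes of 0.39 and 0.07 (edgeR adjusted p = 0.898).

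Of 35 genes widely described as MYC targets, 34 were tested, and 1 rose and 2 fell. Their median log2 change was 0.09, with 21 above 0 and 13 below, against a median of -0.03 over all genes tested, 47.0% of which were above 0, and of 0.01 over protein-coding genes, 51.0% of which were. Within the pairs the median was 0.04 and -0.01 for the targets and 0.00 and -0.01 for all genes, so the list did not stand apart from them there. RRS1, which is needed for assembly of the large ribosomal subunit, rose. It stood at 22.4 CPM in VEC1, 46.0 in VHL1, 32.8 in VEC2 and 64.9 in VHL2, a fitted change of 1.01 ± 0.22 (SE, n = 2 per group; edgeR adjusted p = 0.000346). For reference, 0.749% of all genes were called higher. SHMT2, the mitochondrial serine hydroxymethyltransferase, fell, with 320 CPM in VEC1, 123 in VHL1, 92.6 in VEC2 and 30.7 in VHL2, a fitted change of -1.49 (edgeR adjusted p = 3.06e-08). LDHA, the lactate dehydrogenase subunit that is also a known HIF target, fell too, with 1579 CPM in VEC1, 532 in VHL1, 1881 in VEC2 and 618 in VHL2, a fitted change of -1.59 (edgeR adjusted p = 1.79e-05). No other target was called by edgeR, among them ODC1, the rate-limiting enzyme gene of polyamine synthesis, with changes of 0.07 and 0.29 in the pairs. At an unadjusted p under 0.05 in edgeR there were 10 of the 34, a larger share than the 12.5% of all genes and 14.1% of protein-coding genes. DESeq2 called 8 of the 31 to which it gave an adjusted p, the 3 above with NCL, POLR1B and CCND2, which were higher, and FBL and NME1, which were lower. The 3 of 34 called by edgeR stand beside 3.10% of all genes. The 8 of 31 called by DESeq2 stand beside 1143 of the 32804 genes it fitted, not all of which got an adjusted p. The edgeR share is larger than that of all genes, with calls in both directions and a median near that of all genes. The DESeq2 shares rest on unlike sets of genes and were not compared. The list was described and not tested.

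MXI1 was last set beside 10 HIF target genes as a comparison. Of these, 9 were called by edgeR, all lower, beside 3.10% of all genes tested that were called and 2.35% that were called lower. The median fitted change of the 10 was -1.98, against -0.03 over all genes tested. The largest was that of CA9, a carbonic anhydrase gene, at -5.45, followed by PFKFB4, a glycolytic regulator gene, at -2.84. ANGPTL4, a lipase inhibitor gene, stood at -2.16, and ADM, which encodes the peptide adrenomedullin, at -2.06. NDRG1, a stress response gene, and EGLN3, a HIF prolyl hydroxylase gene, were both at -1.95, and SLC2A1, the glucose transporter gene, was at -1.10. The change of MXI1, -0.99, was the same to 2 decimals as that of VEGFA, the vascular growth factor gene, at -0.99. It was smaller than that of BNIP3, a mitophagy receptor gene, at -2.00, and larger than that of BHLHE40, a circadian repressor gene that DESeq2 called and edgeR did not, at -0.48. Differences between these genes were not tested. Of the 506 other called protein-coding genes, the 3 whose pair of changes lay nearest to those of MXI1 were RHOBTB1 (-1.21 and -0.79), MAP3K15 (-1.15 and -0.80) and PAM (-1.24 and -0.81). Likeness was the sum of the absolute differences over the 2 pairs, which was 0.033, 0.038 and 0.062 for them. By the same measure ABLIM1, ACVR1 and GINS3 lay nearest to MYC among the 11335 protein-coding genes that averaged 100 counts or more, at 0.010 or less. With so many candidates and 2 pairs, near neighbours are found for any gene.

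**Figure D4:**
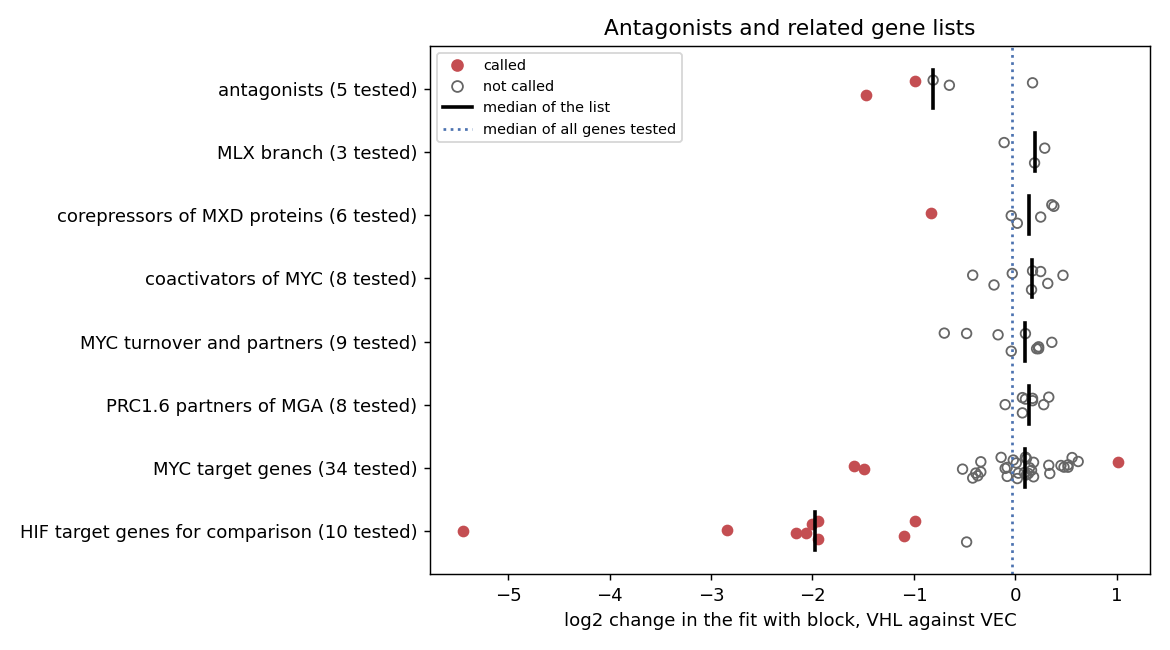
Fitted log2 change of every tested gene in the antagonist group and 7 related lists, filled where called, with the list's median as a black bar and the median of all genes tested as a dotted line. The antagonist median is -0.81, the MYC target median 0.09 and the HIF target median -1.98.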

How the data were processed

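The authors deposited raw counts per gene symbol, 1 file per RNA library. The submitters' processing notes name featureCounts, HOMER, deepTools and build hg19, with no versions or roles. How reads were aligned, which annotation was used, and how strand and shared reads were handled are not given in the sources used here. Samples were grouped and numbered by their titles. H3K27ac tables were not used, because their regions carry no positions and none could be tied to a member.

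The fit was made with edgeR 4.0.16 under R 4.3.3: filterByExpr, TMM scaling, and glmQLFit and glmQLFTest with group and replicate number as terms, two-sided, with Benjamini-Hochberg adjustment over 24417 genes. Standard errors were derived from the log2 change and the root of its F statistic. Intervals used the t quantiles of the fit's degrees of freedom. Changes within a pair were differences of log2 CPM with a prior count of 2. CPM used TMM-scaled library sizes. The molecule label differs with the number, which is why the number was a term. Deviations from the group means correlated at 0.980 between same-numbered libraries over the 21670 genes that averaged 20 counts or more. The alternatives were group as the only term, DESeq2 size factors, no filter, DESeq2 1.42.0, protein-coding genes alone (RefSeq classes, 42755 of 43682 symbols matched) and each pair alone.

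The scripts were tested on counts simulated at the common dispersion of the block fit. With the block, edgeR recovered 48 of 100 genes changed 2-fold and 94 of 100 changed 4-fold, with 5 false calls. A gene changed 2-fold can thus go uncalled. With group as the only term it recovered 0 at either size, so a call missing from that fit says little. The members and lists were chosen with earlier results of these data known. All members were named; genes called by edgeR in other lists of at most 12 genes; up to 3 called MYC targets in each direction, by p-value; and the 3 nearest genes to MXI1 and MYC. Uncalled genes named in these lists, and MYC targets called by DESeq2 alone, were added after their values were seen.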

Additional observations from a re-analysis of the deposited data

Results flagged for a closer look

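The changes of 4 members pointed in opposite directions in the total RNA pair and the polyA RNA pair. MYCL changed by 0.66 in the first and by -0.53 in the second on the log2 scale, MAX by -0.17 and 0.26, MNT by 0.60 and -0.22, and MGA by -0.06 and 0.22. The difference between the pairs was not tested, since each kind of library has 1 pair and a term for it leaves no residual degrees of freedom. None of the 4 was called by edgeR. The kind of RNA, the depth and the share of pseudogene counts all differ with the replicate number and cannot be told apart.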

How the results depend on the processing

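The calls of MXI1 and MXD4 depended on the replicate block. With no replicate block, edgeR called 0 genes and 0 members (22 genes and 0 members at an unadjusted p under 0.05), at a common dispersion of 2.57 against 0.0251 with the block. The changes were then -1.01 for MXI1 and -1.34 for MXD4, both with an adjusted p of 0.999991. Fits without the block on 3 libraries, added after the data were seen, also called 0 genes and 0 members whichever library was left out, with 1 to 12 genes at an unadjusted p under 0.05. With the block, MXI1 and MXD4 were the members called under all 4 alternatives of scaling, filter, tool and gene class. The adjusted p of MXI1 lay between 8.6e-05 and 0.00344 in these, and that of MXD4 between 2.13e-05 and 0.0201. The count of called genes was 999 with DESeq2 size factors, 640 with no filter, 993 with protein-coding genes alone and 1143 in DESeq2, which shared 397 with the 756 called here. Among MYC targets DESeq2 called 8 where edgeR called 3.

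Either pair alone gives a change with no test. Without replicate 1 or without replicate 2, MYCL lay between -0.53 and 0.66, MNT between -0.22 and 0.60, MAX between -0.17 and 0.26 and MGA between -0.06 and 0.22, so the sign of each depends on the pair used. The other 5 members tested kept their direction in both pairs. The difference between antagonist and activator medians lay between -1.68 and -0.59. With all 4 libraries and another scaling, filter, tool, gene class or no block it lay between -1.10 and -1.00. DESeq2 size factors moved the median of all genes from -0.03 to -0.09, and all 9 members kept their direction. MXD1 rests on the replicate 1 pair, since its change was -0.11 without it.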
